A study of Caenorhabditis elegans with 2 samples.

Results

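The regions described here lie at divergent promoters, where the 5′ ends of protein-coding genes on opposite strands share an upstream sequence. They were taken from the pooled list of regions called from a chromatin immunoprecipitation of NHR-27 in young adult Caenorhabditis elegans. A region was kept when its summit, the base of highest signal, lay from 1000 bp upstream to 200 bp downstream of annotated transcript 5′ ends of protein-coding genes on both strands. Regions within 500 bp of a tRNA, snoRNA or snRNA gene were left out. The rule found 742 of the 30000 pooled regions, 2.47% of the list, at 674 gene pairs and with 1367 genes in their windows.

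In a head-to-head gene pair the transcripts start close together and run apart, so 1 stretch of open chromatin can serve both genes. The compact genome of C. elegans holds many such pairs, among them genes for chaperones, ribosomal proteins and other products that all cells make. NHR-27 belongs to the nuclear hormone receptors, a family of zinc-finger transcription factors that is greatly expanded in nematodes. Receptors of this family in other animals recognise short DNA half-sites such as AGGTCA. Chaperone genes are classically driven by heat shock factor, which binds arrays of alternating GAA and TTC units.

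All libraries came from 1 group. Strain OP208 carries the unc-119(ed3) III mutation and the integrated transgene wgIs208, whose product has a C-terminal GFP-FLAG tag, and the fusion protein was pulled down with an antibody to GFP. The worms were young adults of 78 h, males and females pooled, grown from bleached and starved L1 larvae, and the chromatin was sonicated to 200 to 800 bp. Material came from whole animals, so a tissue cannot be assigned to any region. Most label fields name the tagged gene nhr-27, but a note in the same labels names NHR-270, and the lists do not tell these apart. The group has 2 biological replicates, no second condition was compared, and read depth is unknown because the lists hold regions rather than reads. The deposited signal of a region is the authors' own value with no stated scale. It is used to order and describe the entries of each list. Signals and ratios of the 2 replicates are set side by side as description only, because the scales of their lists are not known to match. A shorter thresholded list, which the authors made by comparing replicates, marks the regions they kept, and a pooled region is called thresholded when it stands for an entry of that list. For 1 replicate's list alone, its highest regions, as many as the thresholded list holds, took the place of thresholded ones.

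The sequences at the 6 highest thresholded divergent regions that lay outside every annotated transcript, with 1 chromosome left out, are shown so that the words described later can be seen where present. Each runs 75 bp to either side of the summit, 151 bp in all, on WBcel235 from the RefSeq genome. Capitals mark GAANNTTC or TTCNNGAA (pairs of facing heat shock units), GAGAGA, and CGCTCCAC, the longest word common to the thresholded ribosomal regions, each on either strand.
F44E5.4/F44E5.5, chrII:11759404-11759554, plus strand: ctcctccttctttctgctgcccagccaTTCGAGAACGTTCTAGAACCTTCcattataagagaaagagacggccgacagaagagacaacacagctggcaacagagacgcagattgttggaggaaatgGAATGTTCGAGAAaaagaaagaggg
rpl-15/K11H12.8, chrIV:654840-654990, plus strand: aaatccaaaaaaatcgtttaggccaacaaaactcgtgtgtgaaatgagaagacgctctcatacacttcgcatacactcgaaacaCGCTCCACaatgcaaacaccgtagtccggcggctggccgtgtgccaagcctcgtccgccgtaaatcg
rpl-20/Y17G9B.5, chrIV:4749989-4750139, plus strand: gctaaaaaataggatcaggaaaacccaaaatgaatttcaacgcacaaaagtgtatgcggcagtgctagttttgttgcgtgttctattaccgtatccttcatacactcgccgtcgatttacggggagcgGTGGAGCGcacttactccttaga
Y22D7AL.10/hsp-60, chrIII:1619052-1619202, plus strand: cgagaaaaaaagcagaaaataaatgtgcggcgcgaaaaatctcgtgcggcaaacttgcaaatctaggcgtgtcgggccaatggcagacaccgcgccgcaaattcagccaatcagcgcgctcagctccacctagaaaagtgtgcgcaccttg
larp-1/wip-1, chrIII:5018262-5018412, plus strand: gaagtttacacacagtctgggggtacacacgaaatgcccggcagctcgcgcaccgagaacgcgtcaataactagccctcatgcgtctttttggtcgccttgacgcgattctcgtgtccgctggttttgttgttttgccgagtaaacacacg
drr-2/set-16, chrIII:13643645-13643795, plus strand: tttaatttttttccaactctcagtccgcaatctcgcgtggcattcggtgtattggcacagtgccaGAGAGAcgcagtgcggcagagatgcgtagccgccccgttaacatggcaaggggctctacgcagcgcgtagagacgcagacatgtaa
The F44E5.4/F44E5.5 sequence holds 2 clusters of heat shock units, 1 to each side of the summit. The rpl-15 and rpl-20 sequences each hold CGCTCCAC, in opposite orientations. The hsp-60 and larp-1/wip-1 sequences hold none of the marked words within 75 bp, and the drr-2/set-16 sequence holds GAGAGA.

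Of the 742 divergent regions 25 were thresholded, which is 3.37% (exact 95% interval 2.19 to 4.93), against 1.31 percent of all pooled regions. Among the 7605 regions whose window reached genes of 1 strand only, called one-strand promoter regions here, 101 were thresholded, or 1.33% (1.08 to 1.61). The interval of the divergent share therefore lay above that of the one-strand share, and the ratio of the shares was 2.54. Regions outside promoters and away from small RNA genes gave 0.643% (0.539 to 0.761). These intervals, like those that follow, are Clopper-Pearson intervals over regions and cover counting error only, and neighbouring regions are not independent replicates. With a window of 500 bp upstream and 100 bp downstream only 298 regions were divergent and 16 of them, 5.37%, were thresholded, against 1.88% of one-strand regions.

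As many of the highest pooled regions as the thresholded list holds gave the same counts as thresholding, 25 divergent and 101 one-strand. The shares by rank therefore extend the thresholded result to lower ranks and are not a separate finding. The difference in share was largest in the upper ranks. The median pooled signal of divergent regions was 38.3 (quartiles 32.4 and 48.4), close to 38.4 for one-strand promoter regions and 38.1 for the whole list. Among the 1000 highest of all pooled regions were 6.60% of divergent regions (4.93 to 8.64) and 3.81% of one-strand regions (3.39 to 4.27). Among the 3000 highest the shares were 12.7% (10.4 to 15.3) and 11.3% (10.6 to 12.1), and their intervals overlapped. Among the 10000 highest they were 36.0% and 35.1%. Divergent sequence covered 2.32 Mb of the genome and held 320.4 regions per Mb, against 320.9 in one-strand promoter sequence. Thresholded regions numbered 10.8 per Mb in divergent sequence, 4.26 in one-strand promoter sequence and 3.92 over the whole genome. Divergent promoters were thus as densely listed as other promoters but held more thresholded regions per Mb.

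**Figure D1:**
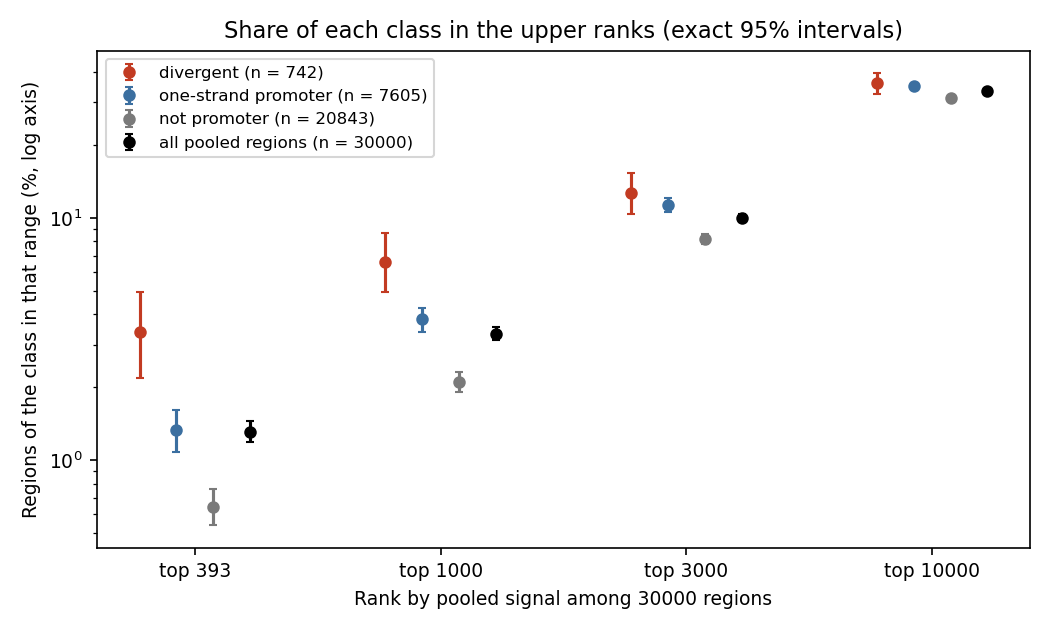
Share of each class of region (vertical axis, per cent, log axis) that ranks within the stated number of highest pooled regions (horizontal axis), with exact 95% intervals as bars. Divergent regions stand above one-strand promoter regions among the 1000 highest, at 6.60% against 3.81%, and not among the 10000 highest, at 36.0% against 35.1%.

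The opposed 5′ ends were a median of 627 bp apart (quartiles 365 and 946, range −275 to 1897, where a negative distance means that the gene heads overlap), and 6 regions lay at such overlapping heads. The summit fell between the 5′ ends in 509 of 742 regions, or 68.6% (65.1 to 71.9). It fell inside 1 of the genes in 229 regions and inside both in 4. The rule reaches 1000 bp upstream but only 200 bp downstream, so it favours summits between the ends and bounds their distance. At gaps over 1000 bp the rule admits no other position, and 100% of summits lay between the ends. Among the 25 thresholded regions 22 summits, or 88% (68.8 to 97.5), lay between the 5′ ends, whose median distance was 675 bp (15 to 1808). The exceptions were cux-7/C07H6.2, mcrs-1/atp-1 and dnj-19/nhr-47, with summits 11, 9 and 25 bp inside a gene of the pair, as measured from its nearest 5′ end. Longer annotated transcripts from other 5′ ends also ran across some summits that lay between these ends, of hsp-90 itself at C47E8.4/hsp-90 and of dhgd-1 at F54D5.9/dnj-13. The median distance from the summit to the nearer 5′ end was 139 bp in all divergent regions and 176 bp in the thresholded ones, and the plus-strand gene was the nearer in 13 of the 25. Gaps of 750 to 1000 bp had the highest thresholded share of the 5 gap ranges, 9 of 130 regions or 6.92% (3.21 to 12.7), and gaps over 1000 bp the lowest, 2 of 159 or 1.26% (0.153 to 4.47). These intervals overlapped, and the median signal of the 5 ranges stayed between 37.3 and 39.1.

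**Figure D2:**
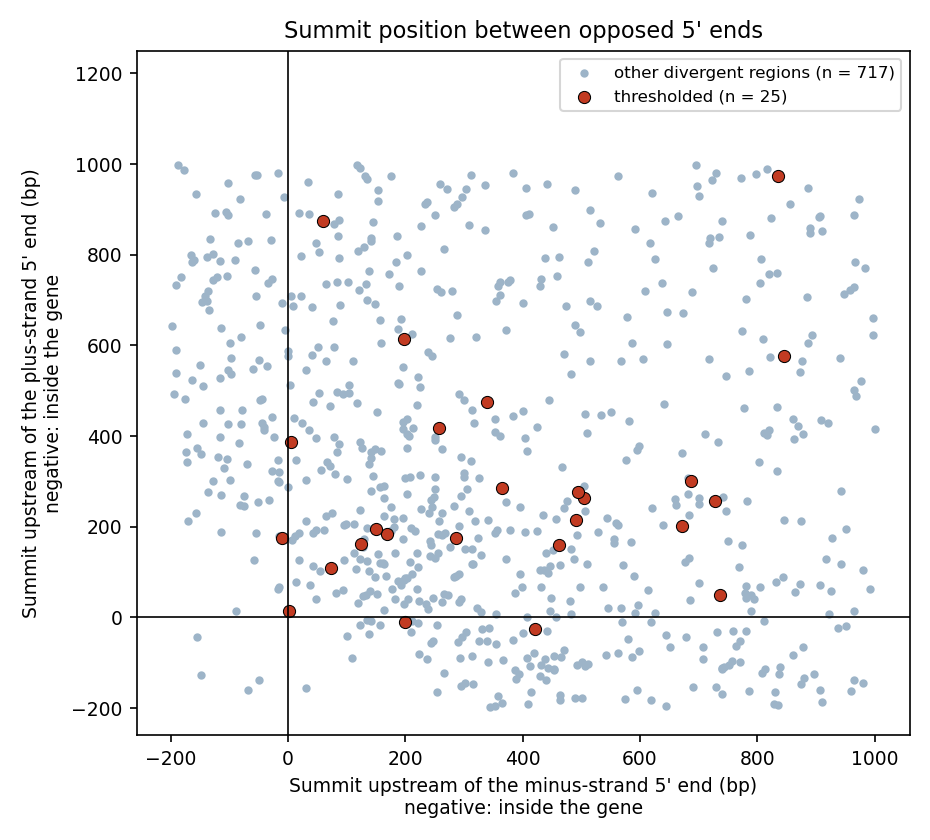
Each point is a divergent region, placed by the distance in bp of its summit upstream of the minus-strand gene's 5′ end (horizontal axis) and of the plus-strand gene's 5′ end (vertical axis), with negative values inside the gene and thresholded regions in red. The 25 thresholded regions lie in the upper right quadrant, between the nearest opposed 5′ ends, except 3 that lie at most 25 bp downstream of such an end.

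Chaperone genes stood at 4 of the 8 highest divergent regions. The highest of all, with a pooled signal of 250.03 and rank 7 of 30000, lay between F44E5.4 (WBGene00009691) and F44E5.5 (WBGene00009692), a pair of genes that RefSeq names heat shock protein 70. Its signal was 126 in replicate 1 and 123 in replicate 2, so the replicates were close. The region spans chrII:11759378-11759584, and its summit lies 168 and 183 bp from the respective 5′ ends, nearly midway.

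A further 3 chaperone pairs ranked within the 50 highest pooled regions. The region of dnj-13, which encodes a DnaJ-type cochaperone of HSP70, had signals of 65.0 and 96.2 in replicates 1 and 2. The region at hsp-90, the single cytosolic HSP90 gene, had signals of 52.9 and 97.3. At the pair Y22D7AL.10/hsp-60, which encode the 10 kDa and 60 kDa chaperonins of the mitochondrion, they were 59.1 and 86.8. In all of these replicate 2 was the higher, by 1.47-fold at hsp-60 and 1.84-fold at hsp-90. Lower in the thresholded set were cct-8, a subunit of the cytosolic chaperonin, with 49.2 and 53.4, and dnj-19, another DnaJ-type gene, with 45.2 and 47.0. The replicates of these last regions lay close together.

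Of the 23 genes of the chaperone list with a divergent region, 5 had a thresholded one, or 21.7% (7.46 to 43.7), against 3.73 percent of all genes with a divergent region (51 of 1367). Thresholded one-strand regions stood at 2 of the 20 genes of the list with a one-strand promoter region. The list was compiled by gene name and does not hold F44E5.4, F44E5.5 or Y22D7AL.10. When genes were added whose RefSeq product names a heat shock protein, chaperone, DnaJ protein or T-complex protein, which brings in these 3 and also bmy-1 and C35D10.5, such genes stood at 27 divergent regions, 6 of them thresholded, so 24% of the thresholded divergent regions (9.36 to 45.1) and 3.64% of all divergent regions (2.41 to 5.25) had one. The list was chosen with earlier results of these data known, and the widening brought in genes of leading regions. These shares are therefore a description. The count of 5 list genes became 3 with the highest regions of replicate 1's list alone and 4 with those of replicate 2. The remaining chaperone regions spread over the whole list. The stress-inducible small heat shock genes hsp-16.2 and hsp-16.41 share a divergent promoter that ranked 14643, with a pooled signal of 38.4 and replicate signals of 21.4 and 19.1. This was close to the median of the list, 38.1. The mitochondrial HSP70 gene hsp-6 ranked 15039 and had a region in the list of replicate 2 only. Also low was hsp-110, which encodes a nucleotide exchange factor of HSP70, at rank 19682 with replicate signals of 20.3 and 27.3.

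Words of the heat shock element were frequent in the thresholded divergent regions. The word GAANNTTC, read the same on both strands and sought within 100 bp of the summit, occurred in 12 of 25, or 48% (27.8 to 68.7), and in 8% of their flanking windows, which are of equal length and centred 400 bp to each side. It occurred in 10.9% (8.69 to 13.4) of the other divergent regions, in 13.9% (7.79 to 22.2) of thresholded one-strand regions and in 11.7% of all pooled windows. Its reverse arrangement TTCNNGAA occurred in 5 of 25, or 20% (6.83 to 40.7), and in 12.7% of the other divergent regions. These words overlap where units alternate, and 3 consecutive alternating units were found in 3 of the 25 and in 10 of the other 717. Both words were chosen after the leading regions had been seen, so the shares are a description. The 25 windows are few. The share was 31.0% in the highest divergent regions of replicate 2's list alone and 31.6% in those of replicate 1. Within 50 bp of the summit the share of the 25 fell to 20%, against 4.74% of the other divergent regions.

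All 6 thresholded divergent regions at chaperone genes held GAANNTTC, as did 2 of the 3 thresholded one-strand regions at such genes. It was present in 6 of the other 19 thresholded divergent regions, or 31.6% (12.6 to 56.6), and in 6 of the 21 chaperone regions, by list or RefSeq product, that were not thresholded, or 28.6% (11.3 to 52.2), among them hsp-16.2/hsp-16.41 and hsp-110. The 30 bp around the word nearest the summit are shown for the 6 chaperone regions, on WBcel235 from the RefSeq genome, with capitals on GAANNTTC and TTCNNGAA.
F44E5.4/F44E5.5, chrII:11759435-11759464, plus strand: aGAACGTTCTAGAACCTTCcattataagag
F54D5.9/dnj-13, chrII:11545504-11545533, plus strand: agaacgctctgGAAAGTTCcgcactcttct
C47E8.4/hsp-90, chrV:14685760-14685789, plus strand: attttcgtcgaGAATTTTCcgccgaaaagg
Y22D7AL.10/hsp-60, chrIII:1619034-1619063, plus strand: aaaaaccaaaaGAAGCTTCGAGAAaaaaag
cct-8/Y55F3AR.2, chrIV:1094287-1094316, plus strand: tttgaaattcgGAAAATTCgcgagcattga
dnj-19/nhr-47, chrV:5505177-5505206, plus strand: tgtactgcagaGAAAATTCtcgataaaacc
The word nearest the summit was centred at −29.5 bp at F44E5.4/F44E5.5 and at 19.5 bp at dnj-13, where negative distances point to lower coordinates. It was farther out at hsp-60, cct-8 and dnj-19, at −78.5, −80.5 and −86.5 bp. Only F44E5.4/F44E5.5 and hsp-60 among these regions had 3 consecutive alternating units. The 6 thresholded regions with the word but no chaperone gene in the window were F56G4.6/wbp-4, cux-7/C07H6.2, F25H9.6/F25H9.7, lron-10/hpr-9, taf-11.3/sly-1 and aka-1/ubc-6. Of these F25H9.6/F25H9.7 had 3 consecutive alternating units. The taf-11.3/sly-1 summit lay 21 bp from the 3′ end of sip-1, a small heat shock gene, and no such distance is given here for the others.

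**Figure D3:**
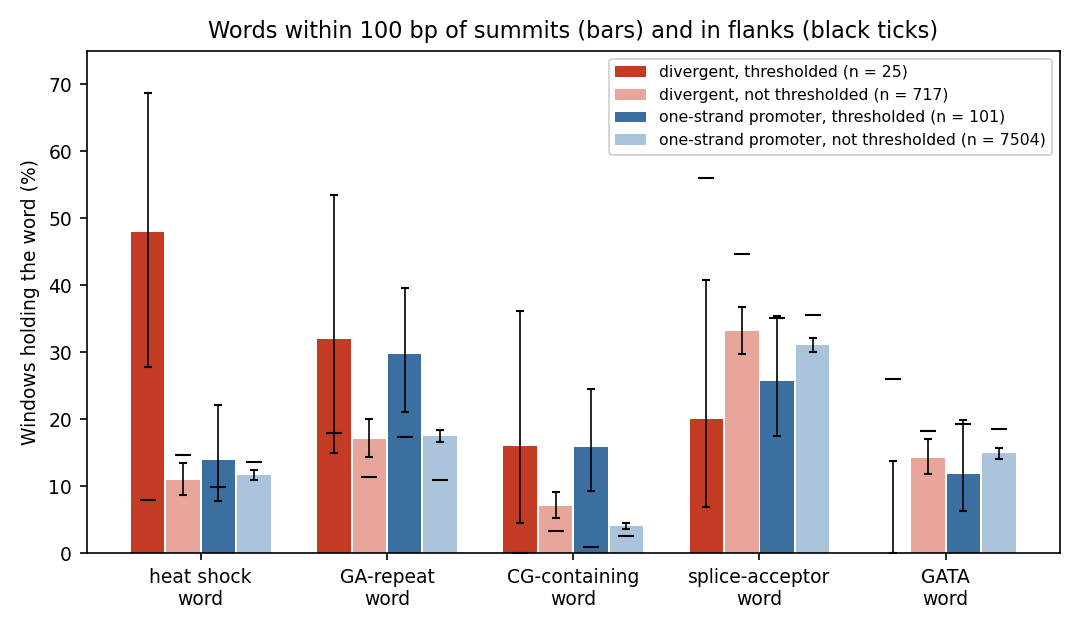
Share of windows within 100 bp of the summit that hold each word on either strand (bars, per cent, with exact 95% intervals) for thresholded and other regions of divergent and one-strand promoters, and the share in flanking windows (black ticks). The heat shock word is GAANNTTC, and the letters of the other words are given with their shares in the text. The heat shock word stands at 48% in thresholded divergent regions and between 10.9% and 13.9% in the other classes of region.

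Ribosomal protein genes formed the other group among the leading regions. Of 22 cytosolic ribosomal protein genes with a divergent region 4 had a thresholded one, or 18.2% (5.19 to 40.3), against 3.73 percent of all genes with a divergent region. Thresholded one-strand regions stood at 2 of the 25 such genes with a one-strand promoter region. The rpl-15 region had signals of 90.5 and 109 in replicates 1 and 2, and the rpl-20 region 77.7 and 110. At rps-1, which shares its promoter with the translational repressor gene ifet-1, they were 70.2 and 72.0. At rpl-12, paired with lin-54, which encodes a DNA-binding subunit of the DREAM repressor complex, they were 34.4 and 57.4. Replicate 2 was higher at all 4, least so at rps-1. The other ribosomal regions reached a pooled signal of 79.1 at rpl-43 and were as low as 29.9 at a region of rps-18. The rpl-15 summit lay 554 bp from a small RNA gene, just beyond the limit of the rule, and those of rpl-20, rps-1 and rpl-12 lay 1579 bp or more away. None of the 8 mitochondrial ribosomal protein genes with a divergent region had a thresholded one, which with so few genes allows a share of up to 37.5%.

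The 4 thresholded ribosomal windows had 1 word of 8 bases in common, CGCTCCAC, and none longer. It was sought on either strand within 100 bp of the summit and picked because these windows share it, so its presence in 4 of 4 is no result. It occurred in 0.587% of all pooled windows (0.503 to 0.680). It was absent from the 20 divergent ribosomal regions that were not thresholded, where the exact interval reaches 16.8%. It was also absent from the 2 thresholded and 27 other one-strand ribosomal regions, where the intervals reach 84.2% and 12.8%. These limits lie far above the share of all pooled windows. The absences therefore do not show that thresholded and other ribosomal regions differ in the word. Of the other thresholded divergent regions 2 of 21 held it, K01G5.10/tasp-1 and F54D5.9/dnj-13, and of the divergent regions that were neither thresholded nor ribosomal, 9 of 697, or 1.29% (0.592 to 2.44). The 30 bp around it are shown on the plus strand of WBcel235, with the word in capitals.
rpl-15/K11H12.8, chrIV:654913-654942, plus strand: cactcgaaacaCGCTCCACaatgcaaacac
rpl-20/Y17G9B.5, chrIV:4750106-4750135, plus strand: tacggggagcgGTGGAGCGcacttactcct
ifet-1/rps-1, chrIII:4475640-4475669, plus strand: taatacgcattGTGGAGCGtcatgcggagt
rpl-12/lin-54, chrIV:13240703-13240732, plus strand: caacattaactGTGGAGCGcacttgcatta
In rps-1 the word is centred at −0.5 bp from the summit and in rpl-15 at 12.5 bp, while in rpl-20 and rpl-12 it lies at 56.5 and 61.5 bp. The longest word that rpl-15 and rps-1 share has 14 bases, that of rpl-20 and rpl-12 has 13 and that of rpl-15 and rpl-12 has 9. Each of these has CGCTCCAC within it. The longest word of rpl-15 and rpl-20 has 12 bases and does not hold CGCTCCAC. Nor do those of rpl-20 and rps-1 and of rps-1 and rpl-12, with 10 bases each.

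Genes for other steps of translation and protein export were also present. The iff-2 region, at a gene for translation initiation factor 5A, had signals of 56.9 and 53.7, and it was the only thresholded one among 8 translation factor genes with a divergent region. Its summit lay 655 bp from a small RNA gene. The larp-1/wip-1 region had signals of 57.6 and 61.5, where larp-1 encodes a La-related RNA-binding protein and wip-1 an actin regulator with a WH2 domain. These regions differed little between replicates.

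At sec-61.B/trap-3 both genes encode parts of the translocon, the channel through which proteins enter the endoplasmic reticulum. Its signals were 64.1 and 38.8, the largest excess of replicate 1. The region of drr-2, an RNA-binding protein gene, and set-16, a gene for a histone methyltransferase of the MLL type, had signals of 43.5 and 79.6. In sly-1 the product is a Sec1-family protein of vesicle transport, and its region, shared with the TFIID subunit gene taf-11.3, had signals of 61.0 and 43.6. The replicates thus pointed in different directions across these regions.

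The second-highest region, K01G5.10/tasp-1, had signals of 102 and 125, and its summit lay 49 bp from the 5′ end of tasp-1, a homologue of the protease taspase. The atp-1 region, at the gene for the alpha subunit of mitochondrial ATP synthase, had 59.6 and 61.8. At F25H9.7, which RefSeq names a succinate dehydrogenase assembly factor, they were 30.5 and 81.7. This last region ranked 5169 in replicate 1 and 43 in replicate 2, the largest rank difference among the 25, and its opposed 5′ ends are only 15 bp apart. It would not be among the highest by replicate 1 alone.

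The remaining thresholded regions had genes of varied roles. The nhl-2/tag-340 region, with signals of 68.0 and 63.4, includes a B-box protein gene. The cux-7/C07H6.2 region, with 57.8 and 76.3, also has lig-4, the DNA ligase of end joining, in its window. At lron-10/hpr-9, where hpr-9 encodes a checkpoint protein of the DNA damage response, the signals were 44.6 and 59.8. Replicate 2 was higher at cux-7/C07H6.2 and lron-10/hpr-9, as it was in 19 of the 25 thresholded regions.

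The aka-1/ubc-6 region, where ubc-6 encodes a ubiquitin-conjugating enzyme, had 47.3 and 47.6. The C56A3.6/cav-2 region, at a caveolin gene, had 58.9 and 54.6, and F56G4.6/wbp-4, whose genes RefSeq describes by domain only, had 73.1 and 104. A nuclear receptor gene, nhr-47, lies opposite dnj-19 and was the only thresholded one of the 3 nuclear receptor genes with a divergent region. Of the 274 nuclear receptor genes annotated 94 had a one-strand promoter region, and none of these was thresholded.

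Of 26 gene lists 10 had a gene with a thresholded divergent region, 17 of 299 list genes in all, or 5.69% (3.35 to 8.95), an interval that holds the 3.73 percent of all genes with a divergent region. With the highest regions of 1 replicate's list in place of thresholded ones, the count was 11 for replicate 1 and 14 for replicate 2. Ubiquitin conjugation, RNA polymerase II and Mediator, DNA replication and repair, chromatin factors, mitochondrial respiration and vesicle transport had 1 gene each. Of 39 chemoreceptor genes with a divergent region 0 had a thresholded one, which allows a share of up to 7.69%, above the 3.73 percent of all genes. For 25 F-box and MATH genes and 14 innate immunity genes the limits were 12% and 21.4%. Splicing factors, with 0 of 14, and cell cycle genes, with 0 of 12, are lists of broadly used genes that also had none, with limits of 21.4% and 25%. All of these limits lie above the share of all genes, so none of these lists can be told from it. Homeobox genes had no divergent region.

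All 25 thresholded regions were found in both replicates' lists, against 366 of all 742 divergent regions, or 49.3% (45.7 to 53.0), and 47.8% of the whole list. The authors thresholded on the replicates, so this was not independent of their choice. The signal of replicate 2 was the higher in 19 of the 25, or 76% (54.9 to 90.6). The same count was 52 of 100 in thresholded one-strand regions, or 52% (41.8 to 62.1), and 194 of 392 in all thresholded regions. Among the other divergent regions in both lists it was 182 of 341, or 53.4% (47.9 to 58.8), against 43.4% of all regions below the threshold. The scales of the replicate lists are not stated, so the counts describe these lists and not the amount of DNA pulled down. The ratio of replicate 2 to replicate 1 ran from 0.605 to 2.68 with a median of 1.09, and 20 of the 25 regions were within 1.5-fold. Of the 25, 16 were among the highest of both replicates when as many regions were taken from each list as the thresholded list holds, and 2 were in neither such set.

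**Figure D4:**
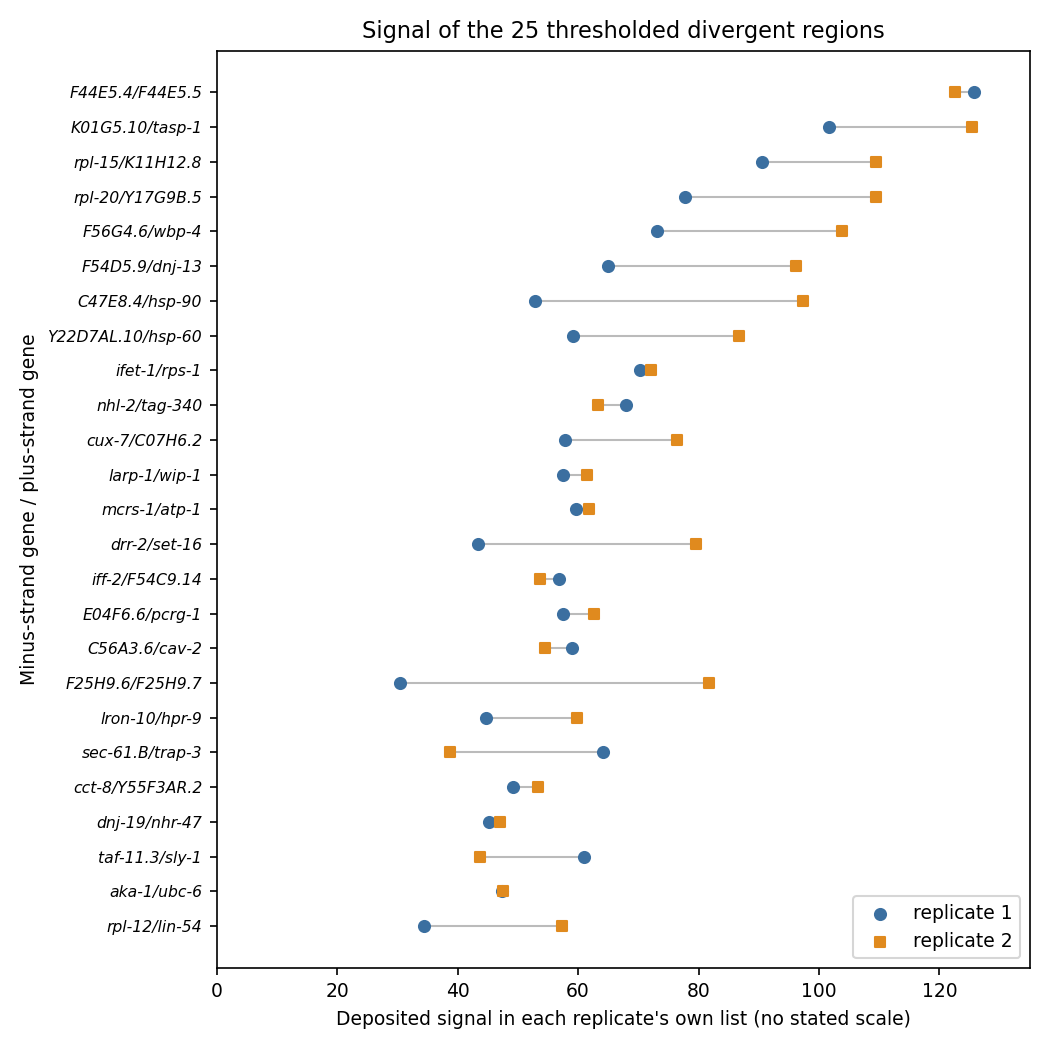
Deposited signal of the 25 thresholded divergent regions (rows, in order of pooled signal, named by minus-strand and plus-strand gene) in replicate 1 (circles) and replicate 2 (squares). Replicate 2 is higher in 19 of 25, and F25H9.6/F25H9.7 shows the widest gap, 30.5 against 81.7.

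GC content was higher at the summits than beside them. Within 100 bp of the summit the 25 thresholded regions had 46.2% ± 6.03 GC (SD over regions) and their flanks 36.1%, a difference of 10.05 ± 10.1 points, with the summit higher in 21 of 25. The other divergent regions had 40.1% and 36.2%, a difference of 3.90 points. Thresholded one-strand regions had 44.05% and 36.8%, a difference of 7.24 points. The spread between regions was as large as the differences between these classes. With the narrower promoter window the difference in thresholded divergent regions was 6.62 points, and with windows of 50 bp it was 16.1 points. CpG dinucleotides numbered 6.55 per 100 bp at thresholded divergent summits and 3.66 in their flanks, against 5.80 and 3.57 in thresholded one-strand regions. The region K01G5.10/tasp-1 had 56.2% GC at the summit and 28.6% in the flanks, while rpl-20 had less GC at its summit, 38.8%, than in its flanks, 43.5%.

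**Figure D5:**
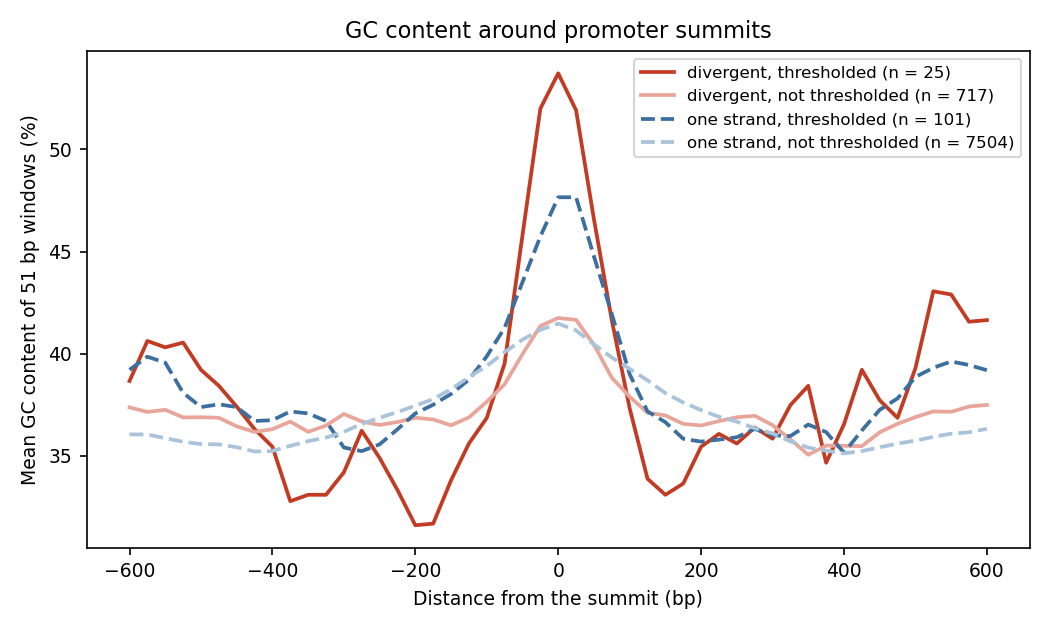
Mean GC content (vertical axis, per cent) of 51 bp windows by distance from the summit (horizontal axis, bp) for thresholded and other regions of divergent and one-strand promoters. Both thresholded classes peak at the summit, as do the other regions at a lower level, and the line of the 25 thresholded divergent regions is the least smooth because it averages the fewest regions.

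Other words were sought on either strand in the same windows. GAGAGA, the GA-repeat word, occurred in 8 of the 25 thresholded regions, or 32% (14.9 to 53.5), in 18% of their flanks, in 17.0% of the other divergent regions and in 29.7% of thresholded one-strand regions. CGAGAG, which can overlap it, occurred in 28%, 11.02% of the other divergent regions and 24.8% of thresholded one-strand regions. CACGCG, the CG-containing word, occurred in 16% of the 25 and in none of their flanks, and in 15.8% of thresholded one-strand regions. For these words divergent and one-strand thresholded regions gave similar shares with overlapping intervals. TGATAA, a word of GATA factors, occurred in 0 of 25, which allows a share of up to 12%, against 26% of the flanks and 14.2% of the other divergent regions. TTTCAG, the sequence of C. elegans splice acceptors, occurred in 20% of summit windows and 56% of flanks. It was also less frequent at summits than in flanks in the other divergent regions, 33.2% against 44.7%. The same held in thresholded one-strand regions, 25.7% against 35.1%, and in all pooled regions, 30.2% against 35.5%. The nuclear receptor half-site AGGTCA occurred in 1 of 25, or 4% (0.101 to 20.4), and in 6.97% of the other divergent regions, and that single window was K01G5.10/tasp-1.

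Some summits fell inside noncoding genes that the rule did not exclude. Of the 25 thresholded summits 5 lay inside a gene annotated ncRNA, or 20% (6.83 to 40.7), against 3.35% of the other divergent summits, 6.93% of thresholded one-strand summits and 2.73% of all pooled summits. They were those of dnj-13, rps-1, nhl-2, sec-61.B and E04F6.6/pcrg-1. In the last the gene is mrpr-1, the RNA of the RNase MRP ribonucleoprotein, and the signals were 57.6 and 62.7. Without that region 24 of 741 divergent regions were thresholded, or 3.24% (2.09 to 4.78). The part of noncoding transcripts in the other regions was not tested.

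Divergent regions were spread over the autosomes and few on X. Chromosome III had 9 thresholded of 139 divergent regions, or 6.47% (3.00 to 11.9), chromosomes II and IV 5 each, of 129 and 123, and chromosome V 4 of 193. Chromosome I had 2 of 130, or 1.54% (0.187 to 5.45). The intervals of all autosomes overlapped. On X 28 regions were divergent, 0.512% of the X regions against 2.66% to 3.24% on the autosomes, and divergent promoter sequence made up 0.704% of X against 2.37% to 2.85%. None of the X regions was thresholded, which allows up to 10.7%.

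Just inside the threshold stood aka-1/ubc-6 and rpl-12/lin-54, with pooled signals of 96.2 and 94.1. Just outside stood nstp-10/ehbp-1 and cest-5.1/C01B10.9, with 91.2 and 89.95. The 25 thresholded divergent regions were also the 25 of highest pooled signal, so this small step lies between neighbours in signal. Of the gene pairs 608 had a single divergent region, 64 had 2 and 2 had 3. The pair C47E8.4/hsp-90 had a second region of pooled signal 30.2, and 1 region of replicate 1 overlapped both, so its replicate 1 value is shared. The ifet-1/rps-1 pair had a second region too, with signals of 29.5 and 30.6, below those of its thresholded one. Of all members 38 overlapped a region of neither replicate's list.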

How the data were processed

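Chromatin immunoprecipitation was measured in 2 biological replicates of 1 group. The deposited lists hold regions made by the authors for each replicate, for the pooled reads and after thresholding on the replicates, on ce11 per the labels, which is WBcel235. The signal of each region, its −log10 q value and the offset of its summit are the authors' deposited values. The deposited score column was not used. The peak caller, its settings, the aligner and the threshold are not given in the sources used here, and no control library was analysed here. The pooled and replicate lists each stop at 30000 regions, so low regions can be missing from a list, and read depth is unknown.

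Summits were set against protein-coding 5′ ends of Ensembl release 115 (WBcel235), and sequence came from the RefSeq genome of that build, with Python 3.11.15, pandas 2.3.3 and numpy 2.4.6. A thresholded region was assigned to the overlapping pooled region with the nearest summit, and a pooled region took the signal of the replicate region that overlaps it by at least 1 bp. Shares carry exact 95% intervals from scipy 1.17.1, and a count of 0 was given the limit of 3 counts. For CGCTCCAC the upper end of the exact interval is given instead. No tests were made, since there is 1 group and regions are not replicates. Named regions are the 25 highest divergent ones, up to 4 genes per list, 2 to each side of the threshold and the 5 with the largest rank difference. The members, gene lists, words and rules were chosen with earlier results of these data known, and the heat shock words and CGCTCCAC after these regions were seen. The steps were tested on simulated data. Alternatives changed the promoter window, the 5′ ends used, the small RNA limit, the overlap rule, the set of highest regions, the replicate list and the summit window.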

Additional observations from a re-analysis of the deposited data

How the results depend on the processing

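No paired analysis was possible because there is 1 group. Of 101 alternative values 74 were labelled unchanged, 27 moved and 0 changed sign. Most of the values are counts, shares and ratios that cannot be negative, so the lack of sign changes says little. An unchanged label does not mean a small change. The heat shock word share of 48% was labelled unchanged at 31.0%, 31.6% and 35.3%, with an SD of 0.385 points between the replicate lists. With the window of 500 bp upstream and 100 bp downstream there were 298 divergent regions, of which 5.37% were thresholded against 1.88% of one-strand regions. They made up 4.07% of thresholded regions, their median signal was 38.97, their 5′ ends were 386.5 bp apart, 76.8% of summits lay between them, the GC difference was 6.62 points and 11 list genes were counted. When any overlap counted as thresholded, 1.76% of one-strand regions were thresholded and the GC difference was 8.92 points. With only the higher-ranking part of the thresholded list these were 0.565% and 11.2 points, and 10 list genes were counted. Windows of 50 bp gave a GC difference of 16.1 points. Leaving out a replicate gave 667 to 770 divergent regions. Here the highest regions of the remaining list, as many as the thresholded list holds, stood in for thresholded ones. They made up 2.85% to 3.77% of divergent and 1.32% to 1.35% of one-strand regions. Median signals of divergent regions were 21.7 to 22.2 on the scale of a single list. The 5′ ends were 617.5 to 675 bp apart, with 66.4% to 67.3% of summits between them. The GC difference was 9.26 to 9.92 points, and 11 to 14 list genes were counted. The ratio of the divergent to the one-strand share was 2.14 to 4.05 across alternatives. Alternatives for the heat shock word, the chaperone and ribosomal counts, the list genes and this ratio were added after seeing the data. The replicates number 2, read depth is unknown, and the intervals hold no biological spread.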

Other observations

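The rule left out 236 promoter regions within 500 bp of a tRNA, snoRNA or snRNA gene. Of these 41, or 17.4% (exact 95% interval 12.8 to 22.8), were thresholded, and their median pooled signal was 54.6. With a limit of 200 bp in place of 500 bp there were 747 divergent regions, and 25 of them were thresholded as before.

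At 3 of the 25 thresholded pairs both genes encode parts of 1 machine or family: the HSP70 genes F44E5.4 and F44E5.5, the mitochondrial chaperonin genes Y22D7AL.10 and hsp-60, and the translocon genes sec-61.B and trap-3. These pairs were picked after their values were seen, and how often other pairs share a role was not counted. The regions outside the ribosomal group that hold CGCTCCAC without being thresholded include fib-1/mut-15, with a pooled signal of 54.3, where fib-1 encodes the nucleolar protein fibrillarin. The highest of them was gpap-1/scpr-1, with 71.6.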
